A study of Mus musculus with 9 samples.

Results

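The genes described here are Hsf1, which encodes the master regulator of the heat shock response, and 9 genes for cytosolic chaperones and a co-chaperone (Hspa8, Hspa4, Hspa1b, Hsp90aa1, Hsp90ab1, Hsph1, Dnaja1, Dnajb1 and Bag3). They were chosen by symbol and not by a rule on measured values, although earlier results of these data were known. All 10 were found among the 20189 genes of the count table. Their mRNA was measured in E14 cells, a line of mouse embryonic stem (ES) cells of wild-type genotype grown on gelatin with serum and leukemia inhibitory factor. The 9 libraries fell into 3 groups of 3, which were starved of Thr for 3 h, starved of Cys for 3 h, or kept unstarved in medium containing every amino acid. All groups were cells of this 1 line in starvation medium with dialyzed serum, leukemia inhibitory factor and β-mercaptoethanol, a reducing agent. The labels give 3 replicates per condition and do not say whether these were separate cultures, so the p-values below measure only the spread between these samples. In bulk RNA, fewer cells making a transcript and less of it per cell cannot be told apart.

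HSP70 and HSP90 proteins bind and release folding client proteins in cycles driven by ATP. J-domain proteins of the HSP40 family deliver clients to HSP70 and start its ATP hydrolysis, exchange factors such as the HSP110 proteins and BAG3 reset it, and HSP90 takes over many clients at a later stage of folding. When unfolded proteins accumulate, HSF1 is released from chaperones, forms trimers and binds heat shock elements, which are repeats of the unit nGAAn in alternating orientation, in the promoters of inducible chaperone genes. The comparisons below ask how the mRNA of these genes differed between cells starved of Thr, cells starved of Cys and unstarved cells.

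Heat shock elements were looked for in the promoters, because they are the DNA letters that HSF1 binds in inducible chaperone genes. The RefSeq promoter set of GRCm38.p6, with 250 bases before to 50 after each start site, held 10 start sites of 6 of the genes (Hspa4, Hspa1b, Hsph1, Dnaja1, Dnajb1 and Bag3). Hsf1, Hspa8, Hsp90aa1 and Hsp90ab1 had no entry. The motif of 2 units was written as GAANNTTC or TTCNNGAA, each of which reads the same on both strands, and the motif of 3 units as GAANNTTCNNGAA or TTCNNGAANNTTC, which holds the shorter motif in both arrangements. The shorter motif was in 5 of the 10 start site windows, belonging to 4 of the 6 genes, and in 15.1% of all 32851 promoters of this length. That percentage is per start site and not per gene. Windows of the same gene can overlap, and both Hsph1 windows hold the same sites, so the 10 windows are not separate promoters. The longer motif was found in Hsph1 alone among the 6 genes and in 0.603% of all promoters. The stretches below show the 250 bases before the Hspa1b start site, the heat-inducible HSP70 gene of the set, and 30 bases around each match in the other genes, with the match in capitals and all read 5′ to 3′ along the strand of the gene.
Hspa1b (chr17:34959239-34959488, minus strand, match 104 bases before the start): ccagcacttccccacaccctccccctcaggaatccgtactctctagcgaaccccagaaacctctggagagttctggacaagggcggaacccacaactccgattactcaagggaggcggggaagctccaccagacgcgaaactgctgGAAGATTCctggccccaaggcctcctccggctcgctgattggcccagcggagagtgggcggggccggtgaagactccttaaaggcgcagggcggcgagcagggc
Hsph1 (chr5:149636351-149636380, minus strand, match 33 bases before the first start): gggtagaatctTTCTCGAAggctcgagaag
Hsph1 (chr5:149636287-149636316, minus strand, 3 units from base 37 after the first start): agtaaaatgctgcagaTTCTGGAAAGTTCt
Dnaja1 (chr4:40722333-40722362, plus strand, match 124 bases before the first start): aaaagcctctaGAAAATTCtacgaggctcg
Bag3 (chr7:128523603-128523632, plus strand, match at base 43 after the start): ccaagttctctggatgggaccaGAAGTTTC
The matches in Hsph1 and Bag3 after the start lie in the transcribed part of the gene. The matches before the first start of Hsph1 and Dnaja1 also lie within the gene spans given below. Those spans come from GENCODE and begin further upstream than the RefSeq starts used here. Hspa4 and Dnajb1 held neither motif in these windows. Only exact matches were searched for, so elements with a differing letter in a unit are not marked in any of these genes. These matches describe letters in the reference genome, and binding of HSF1 was not measured.

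The libraries held 48763102 to 74962733 counts each, and the 10 genes took 1.66% to 1.67% of all counts in unstarved, 1.18% to 1.199% in Thr-starved and 1.35% to 1.38% in Cys-starved libraries. Of the 28226 counts from 1 to 20 in the table, 67.8% were even. All 7 pluripotency markers were present in every group, with a summed level of 3182 to 3229 CPM (the usual depth-scaled count, with library sizes adjusted by TMM factors, and the unit of all levels below) in unstarved, 3547 to 3595 in Thr-starved and 3201 to 3212 in Cys-starved libraries. With Thr starvation Pou5f1 (849.1 to 756.8 CPM) and Nanog (282.7 to 211.5) were lower, and the other pluripotency markers were higher. Markers of other lineages were low, except for the 4 neural markers. These summed to 163.9 to 169.5 CPM in unstarved, 87.5 to 91.3 in Thr-starved and 201.5 to 206.8 in Cys-starved libraries. Most of it was Tubb3, at 147.4, 60.5 and 180.4 CPM. The other neural markers were higher in Thr-starved than in unstarved libraries (Sox1 15.4 and 8.37, Pax6 8.24 and 7.53, Neurod1 5.65 and 3.95 CPM). The markers listed for endoderm (5 of 6 in the table) summed to 5.51 to 9.26 CPM, those for mesoderm (3 of 4) to 2.30 to 7.31 CPM and those for fibroblasts (4 of 5) to 9.48 to 14.9 CPM over all libraries. The part of these shifts in the results below was not tested.

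Thr starvation lowered the mRNA of 8 of the 10 genes and raised that of Hspa4, and only Bag3 was not called. Of all 20143 genes tested, 63% were called in this comparison, 31.1% as higher and 31.9% as lower. The median of the 10 log2 fold changes came to -0.39 with Thr starvation, where that of all genes was -0.016. A decrease of more than 1 on the log2 scale was called for 2 of the 10 genes, Hspa8 and Hspa1b, and for 7.46% of all genes. Cys starvation lowered 7 of the 10 genes and raised Hsf1, and Hspa4 and Bag3 were not called. In that comparison 36.3% of all genes were called, 17.5% higher and 18.8% lower, and the median was -0.24 for the 10 genes and 0.0068 for all genes. When libraries were scaled by the deposited size factors instead of TMM, the Cys calls over all genes split into 2787 higher and 4786 lower, where TMM gave 3523 and 3790, and 1 gene was higher and 8 lower among the 10, with Hspa4 as the added call. Both comparisons share the unstarved libraries, so their values are set side by side below and the starvations were also tested against each other. In that direct test 6 of the 10 genes were lower and 3 higher with Thr than with Cys starvation, while 62% of all genes were called, with 31.6% of all genes lower and 30.4% higher relative to Cys starvation. In all 3 comparisons the genes called were also those whose libraries did not overlap between the groups, which held for 66.5%, 46.4% and 65.8% of all genes.

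**Figure D1:**
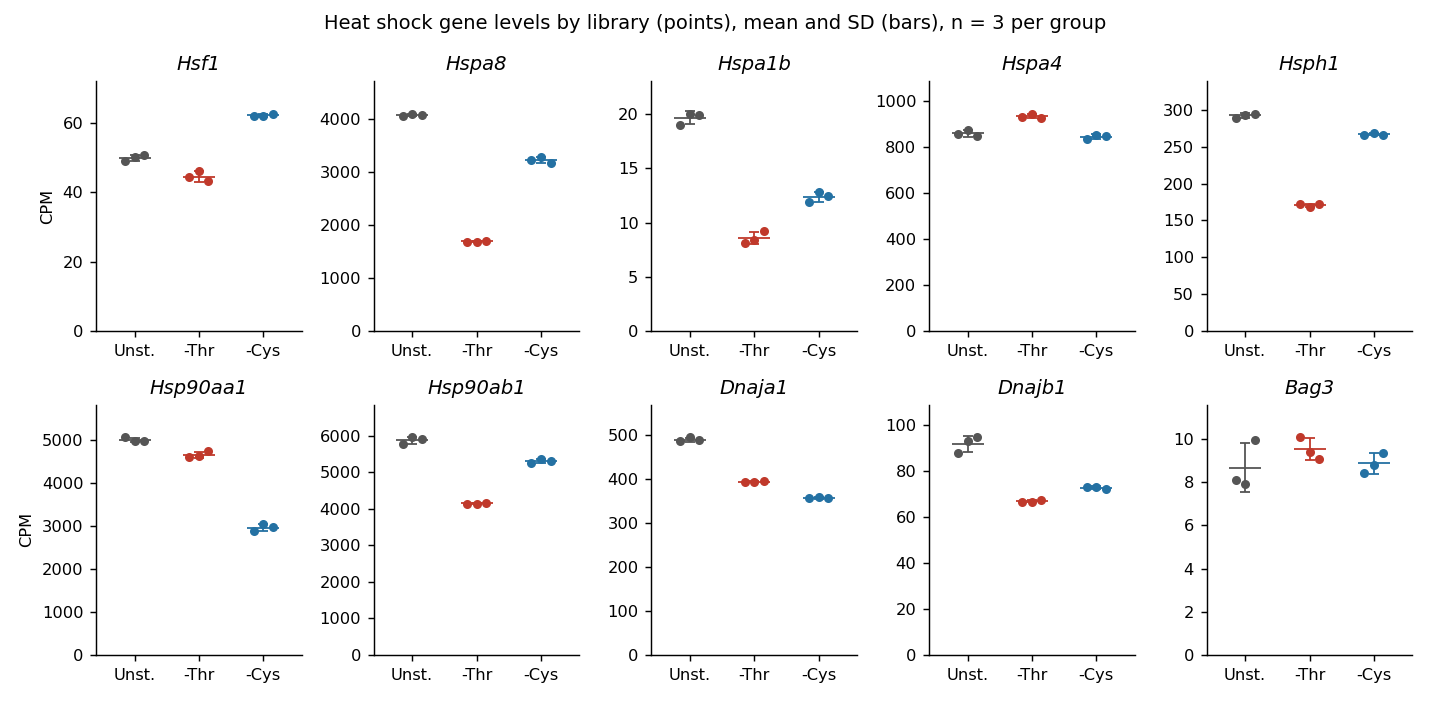
Level of each of the 10 genes in CPM on linear axes from 0, in 1 panel per gene, with a point for each of the 3 unstarved (Unst.), 3 Thr-starved (-Thr) and 3 Cys-starved (-Cys) libraries and bars for the mean and SD. Hspa8 and Hspa1b were lowest with Thr starvation, Hsp90aa1 and Dnaja1 were lowest with Cys starvation, Hsf1 was highest with Cys starvation, and the 3 groups of Bag3 overlapped.

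Hsf1 (ENSMUSG00000022556, GRCm38 chromosome 15, 76477422 to 76501913, plus strand) was measured at 49.0, 50.2 and 50.7 CPM in the unstarved libraries. It was at 44.2, 46.1 and 43.1 CPM in the Thr-starved and at 61.9, 61.8 and 62.6 CPM in the Cys-starved libraries. No group overlapped another, with the Cys-starved libraries on top and the Thr-starved ones at the bottom. The log2 fold change of Hsf1 with Thr starvation was -0.17 (SE 0.034, adjusted p = 0.00017). Here and throughout, p-values of genes come from the quasi-likelihood test of edgeR with Benjamini-Hochberg adjustment over all genes tested. Cys starvation raised it by 0.31 (SE 0.033, adjusted p = 1.1e-07), a 1.24-fold increase, and only Hsf1 among the 10 genes rose in this comparison. In the direct test, Hsf1 was lower by 0.48 with Thr than with Cys starvation (log2 fold change -0.48, adjusted p = 1.9e-11). The change of Hsf1 with Cys starvation was thus in the opposite direction to that of 7 of the chaperone genes. HSF1 is regulated mainly after translation, so its mRNA level does not measure its activity.

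The constitutive HSP70 chaperone HSC70, encoded by Hspa8 (ENSMUSG00000015656, chromosome 9, 40800984 to 40810087), showed the largest decrease of the 10 genes with Thr starvation. Its level was 4064, 4108 and 4082 CPM in unstarved and 1687, 1691 and 1711 CPM in Thr-starved libraries, and 3242, 3291 and 3174 CPM in Cys-starved ones. The groups were far apart relative to the spread within each. The log2 fold change was -1.27 with Thr starvation (SE 0.014, adjusted p = 4.7e-25), a 2.41-fold decrease, and -0.34 with Cys starvation (SE 0.014, adjusted p = 1.6e-14). The direct test gave -0.93 (adjusted p = 9.3e-23). Of all genes tested, 5.41% had a lower log2 fold change than Hspa8 with Thr starvation, and 9.20% with Cys starvation. Of the windows of 43 bases, the read length, along the longest transcript, 55.7% also occur in transcripts of 17 other genes, led by Gm15459, Gm26825 and Gm8355, and how the counting treated reads that fit several places is not given in the sources used here, so the level of Hspa8 is uncertain to that extent.

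The heat-inducible HSP70 gene Hspa1b (ENSMUSG00000090877, chromosome 17, 34956436 to 34959238) is the gene whose promoter is printed above. It was measured at 19.0, 20.02 and 19.9 CPM in unstarved, 8.10, 8.43 and 9.19 CPM in Thr-starved and 11.9, 12.8 and 12.4 CPM in Cys-starved libraries. No library of one group reached the range of another. Hspa1b fell by 1.19 in Thr starvation (SE 0.061, adjusted p = 8.3e-14) and by 0.67 in Cys starvation (SE 0.058, adjusted p = 5.6e-09), and the direct test gave -0.52 (adjusted p = 2.1e-07). Of all genes, 2.30% had a lower log2 fold change with Cys starvation and 6.18% with Thr starvation. Hspa1a, its near-identical copy in the same cluster (chromosome 17, 34969190 to 34972156), shares 1772 of the 2761 windows of 43 bases of Hspa1b, and its promoter is 98.8% identical over the 250 bases before the start, with the same motif at the same place. Hspa1a was at 12.3 ± 0.210 CPM in unstarved, 6.14 ± 0.252 in Thr-starved and 7.93 ± 0.373 in Cys-starved libraries (SD, n = 3 each). Its log2 fold changes were -0.998 (adjusted p = 2e-11) and -0.63 (adjusted p = 1.2e-07). Reads of the shared stretches could have gone to either gene, so the levels of the copies are not independent, while both moved the same way.

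Apg-2, the HSP110 protein encoded by Hspa4 (ENSMUSG00000020361, chromosome 11, 53259814 to 53300457), is an exchange factor for HSP70. Its gene went against the 8 genes that fell with Thr starvation, at 932, 946 and 929 CPM in Thr-starved and 856, 877 and 849 CPM in unstarved libraries. The increase of 0.12 (log2, SE 0.018, adjusted p = 3.1e-06) is 1.09-fold. The Cys-starved libraries, at 836, 855 and 850 CPM, overlapped the unstarved ones, with a difference of -0.023 (95% interval -0.060 to 0.014, adjusted p = 0.34). Hsph1 (ENSMUSG00000029657, chromosome 5, 149614287 to 149636376) encodes HSP105, the other HSP110 protein in the set, and carries the only match to the longer motif. It was at 289, 293 and 295 CPM in unstarved, 172, 168 and 172 CPM in Thr-starved and 266, 268 and 266 CPM in Cys-starved libraries. Its level fell by 0.78 in Thr starvation (SE 0.022, adjusted p = 2.2e-18) and by 0.13 in Cys starvation (SE 0.022, adjusted p = 4.1e-05). Hspa4 and Hsph1 thus differed in direction with Thr starvation, at 0.12 and -0.78. No window of 43 bases of either gene was shared with another gene.

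The HSP90 paralogs differed in which starvation lowered them more. Hsp90aa1 (ENSMUSG00000021270, chromosome 12, 110690605 to 110702728) encodes the stress-inducible HSP90α and was at 5070, 4974 and 4985 CPM in unstarved and 4607, 4625 and 4750 CPM in Thr-starved libraries. In the Cys-starved libraries it was at 2887, 3043 and 2979 CPM, well below all other libraries. Its log2 fold change was -0.10 with Thr starvation (SE 0.016, adjusted p = 4.6e-06) and -0.75 with Cys starvation (SE 0.016, adjusted p = 2.1e-19), a 1.69-fold decrease. Of all genes, 1.72% had a lower log2 fold change with Cys starvation and 43.2% with Thr starvation. Hsp90ab1 (ENSMUSG00000023944, chromosome 17, 45567775 to 45573271), which encodes the mainly constitutive HSP90β, was at 5776, 5954 and 5899 CPM in unstarved, 4138, 4132 and 4164 CPM in Thr-starved and 5249, 5370 and 5315 CPM in Cys-starved libraries. The starvations thus came in the reverse order to Hsp90aa1, with the lowest level of Hsp90ab1 after Thr starvation. The log2 fold change of Hsp90ab1 was -0.50 (SE 0.012, adjusted p = 1.4e-19) with Thr and -0.15 (SE 0.012, adjusted p = 3e-09) with Cys starvation. The direct test of the starvations gave 0.65 for Hsp90aa1 (adjusted p = 2.3e-19) and -0.36 for Hsp90ab1 (adjusted p = 7.5e-17). Of the windows of 43 bases of Hsp90aa1, 60.0% are shared with 5 other genes, led by Gm12346, against 6.90% for Hsp90ab1.

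A ratio of 2 genes within a library does not depend on the scaling of that library, so the paralog pairs were also compared as ratios of counts per length. The ratio of Hsp90aa1 to Hsp90ab1 was 0.670, 0.637 and 0.645 in the unstarved libraries. It was 0.849, 0.854 and 0.870 in the Thr-starved and 0.420, 0.432 and 0.428 in the Cys-starved libraries. The 3 groups were separated in both directions, and the log2 ratio differed by 0.40 with Thr and by -0.61 with Cys starvation from unstarved cells, and by 1.01 between the starvations (exact two-sided permutation test, p = 0.1 for each, which is the smallest that 3 against 3 libraries allow). The ratio of Hspa1b to Hspa8 was 0.00738 ± 0.000185 in unstarved, 0.00775 ± 0.000443 in Thr-starved and 0.00587 ± 0.000208 in Cys-starved libraries (SD, n = 3 each). Its Thr-starved and unstarved libraries overlapped (exact permutation test, log2 difference 0.07, p = 0.3), whereas the Cys-starved libraries lay below both (log2 difference from unstarved -0.33, exact permutation test, p = 0.1). The proportion of Hspa1b to Hspa8 therefore did not separate Thr-starved from unstarved libraries. With Cys starvation every library had less Hspa1b per Hspa8 than any unstarved library. This covers Hspa1b only. Its inducible copy Hspa1a had a log2 fold change of -0.998 with Thr starvation, where Hspa8 had -1.27, and a ratio of Hspa1a to Hspa8 was not tested.

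**Figure D2:**
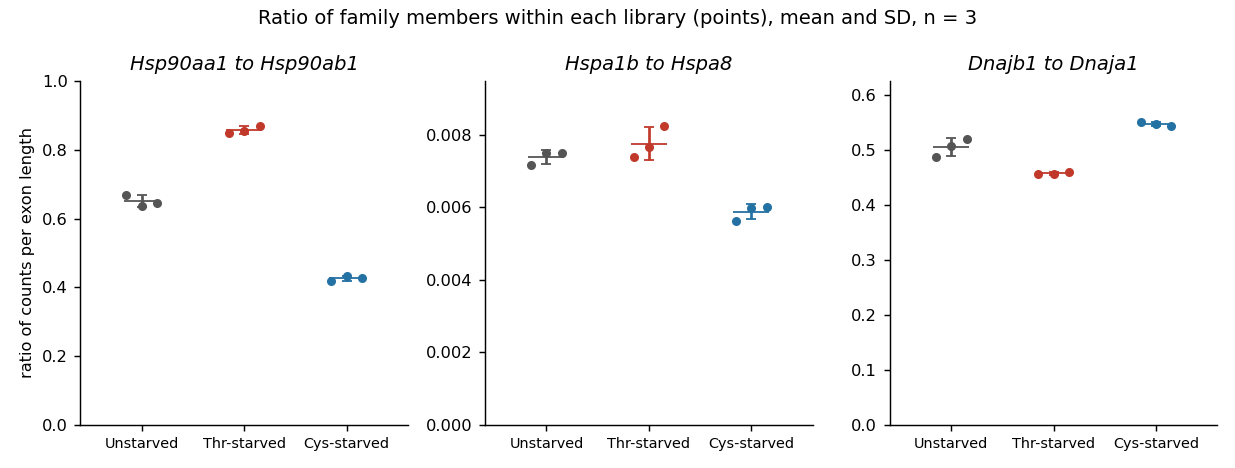
Ratio of the counts per length of 3 pairs of related genes in each library, with the groups on the horizontal axis, 1 point per library, and bars for the mean and SD (n = 3). The Hsp90aa1 to Hsp90ab1 ratio had a mean of 0.858 with Thr starvation and 0.426 with Cys starvation, against 0.651 in unstarved libraries.

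Among the J-domain proteins, Dnaja1 and Dnajb1 fell with both starvations. Dnaja1 (ENSMUSG00000028410, chromosome 4, 40722150 to 40737149), which helps HSC70 with newly made and mitochondrial proteins, was at 485, 494 and 489 CPM in unstarved, 393, 393 and 395 CPM in Thr-starved and 356, 359 and 356 CPM in Cys-starved libraries. Its log2 fold change was -0.31 (SE 0.019, adjusted p = 2e-12) with Thr and -0.45 with Cys starvation (SE 0.019, adjusted p = 3.7e-14). Of the genes that fell with both starvations, Dnaja1 and Hsp90aa1 were lower with Cys than with Thr starvation (direct test of Dnaja1 0.14, adjusted p = 1.2e-06). Exons of Dnaja1 overlap those of Smu1 on the opposite strand, and 29.5% of its windows of 43 bases are shared with other genes, so reads there may have been counted for either gene. Dnajb1 (ENSMUSG00000005483, chromosome 8, 83608193 to 83612653), a heat-inducible HSP40 that also helps to break up aggregates, was at 87.9, 93.0 and 94.5 CPM in unstarved, 66.6, 66.6 and 67.4 CPM in Thr-starved and 73.0, 72.9 and 71.9 CPM in Cys-starved libraries. The log2 fold changes were -0.46 (SE 0.031, adjusted p = 8.7e-12) and -0.34 (SE 0.030, adjusted p = 8.8e-09), and the direct test gave -0.12 (adjusted p = 0.002). The ratio of Dnajb1 to Dnaja1 was 0.505 in unstarved, 0.457 in Thr-starved and 0.547 in Cys-starved libraries, a log2 difference from unstarved of -0.14 and 0.12 (exact permutation test, p = 0.1 for each). Dnajb1 fell by the larger amount with Thr starvation and Dnaja1 with Cys starvation.

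Bag3 (ENSMUSG00000030847, chromosome 7, 128523616 to 128546981) encodes an HSP70 co-chaperone that directs clients to autophagy and is a target of HSF1 under heat. It was the lowest of the 10 genes per length in unstarved libraries. Its libraries overlapped between the groups, and it was not called in any of the 3 comparisons. Its level was 8.10, 7.93 and 9.98 CPM in unstarved, 10.1, 9.39 and 9.09 CPM in Thr-starved and 8.43, 8.81 and 9.37 CPM in Cys-starved libraries. The log2 fold change was 0.14 with Thr starvation (95% interval -0.040 to 0.31, adjusted p = 0.17) and 0.036 with Cys starvation (95% interval -0.14 to 0.21, adjusted p = 0.79). The intervals leave out decreases of the size seen for Hspa1b in either starvation. The unstarved libraries included one at 9.98 CPM, and without that library, unstarved replicate 3, Bag3 was called higher with Thr starvation (log2 fold change 0.25, adjusted p = 0.013). The call for Bag3 therefore rests on that library.

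**Figure D3:**
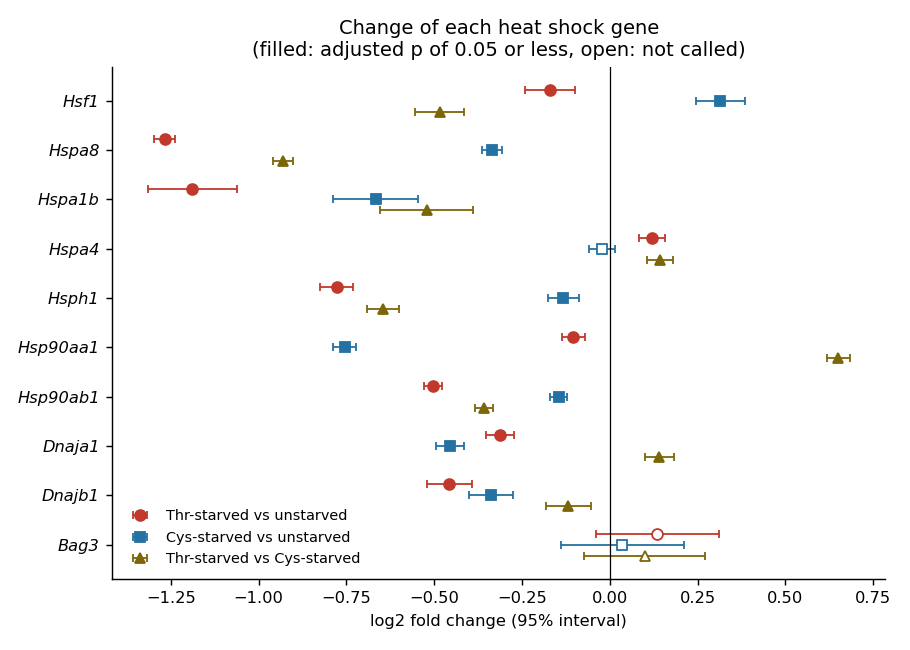
Log2 fold change of each of the 10 genes with its 95% interval, for Thr-starved (circles) and Cys-starved libraries (squares) against unstarved ones and for Thr-starved against Cys-starved libraries (triangles), with open symbols for values that were not called. Hspa8 fell more with Thr (-1.27 and -0.34) and Hsp90aa1 more with Cys starvation (-0.10 and -0.75), and only Hsf1 has called values on both sides of 0 against unstarved libraries.

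Levels can be compared between genes only per length, as CPM per kilobase of merged exons. On that scale the unstarved order was Hsp90ab1 (1959 ± 30.5), Hsp90aa1 (1274 ± 13.4), Hspa8 (949.7 ± 5.10), Hspa4 (155.7 ± 2.66), Dnaja1 (56.7 ± 0.534), Hsph1 (40.2 ± 0.418), Dnajb1 (28.6 ± 1.09), Hsf1 (7.04 ± 0.121), Hspa1b (7.01 ± 0.205) and Bag3 (3.38 ± 0.444; SD, n = 3). Only Hsf1 and Hspa1b overlapped as neighbours in this order. The HSP90 genes and Hspa8 therefore stood far above the inducible Hspa1b and Bag3 in unstarved cells. With Cys starvation Hsp90aa1 (755.4) and Hspa8 (752.2) overlapped. With Thr starvation Hspa8 was at 394.4 and Hspa1b (3.06) came last, below Bag3 (3.72). Merged exons can be longer than the transcript in use, at 2.27 times the length of the longest transcript for Hsf1 and 1.53 times for Dnaja1, and these overlaps depended on that choice. Per kilobase of the longest transcript, chosen after seeing the data, unstarved Hsf1 was at 15.9 ± 0.274 and Hspa1b at 7.01 ± 0.205, and with Cys starvation Hspa8 was at 1024 ± 18.6 and Hsp90aa1 at 905.0 ± 23.9 (SD, n = 3), with no overlap in either pair. The order can also depend on how reads that fit several genes were counted, which is not given in the sources used here. Of the windows of the read length, 64.3% are shared with other genes for Hspa1b, 60.0% for Hsp90aa1 and 55.7% for Hspa8. The share is 29.5% for Dnaja1, 6.90% for Hsp90ab1, 0.711% for Dnajb1 and 0% for Hsf1, Hspa4, Hsph1 and Bag3. The part of this sharing in the order of the genes was not tested.

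Genes in related families were then counted in the same fit, in lists set by function. No rule on values was used for the lists, but earlier results of these data were known. Of the other 51 genes for cytosolic chaperones, their partners and HSFs in the table, 17 were higher and 20 lower with Thr starvation (median log2 fold change -0.054), and 3 were higher and 23 lower with Cys starvation (median -0.067). In percent, 33.3% were higher and 39.2% lower with Thr starvation, where all genes gave 31.1% and 31.9%, and 5.88% were higher and 45.1% lower with Cys starvation, where all genes gave 17.5% and 18.8%. The list of 15 HSP90 co-chaperones had 2 higher and 8 lower with Thr and 0 higher and 12 lower with Cys starvation. Lower were 53.3% with Thr and 80% with Cys starvation, against 31.9% and 18.8% of all genes. Higher were 13.3% and 0%, against 31.1% and 17.5% of all genes. The Cys counts of 0 higher in this and the following lists were 0 with DESeq2 too, and at an unadjusted p under 0.05 they became 1 for the HSP90 co-chaperones and 1 for the heat shock targets and stayed at 0 for the others. Fkbp4, a co-chaperone of steroid receptors, fell by 0.71 with Thr starvation (adjusted p = 4.7e-19), and Stip1, which bridges HSP70 and HSP90, fell by 0.48 and 0.65 with Thr and Cys starvation (adjusted p = 1.6e-15 and 1.2e-16). Ppp5c, a phosphatase bound to HSP90, rose by 0.44 with Thr starvation (adjusted p = 9.9e-13).

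Of 7 other HSP70 and HSP110 genes, 1 was higher and 5 lower with Thr and 0 higher and 2 lower with Cys starvation, and Hspa14, a ribosome-bound HSP70, rose by 0.32 with Thr starvation (adjusted p = 7.8e-11). Those lower with Thr starvation included Hspa1a, described above. Hspa2, Hspa12a and Hspa12b, with means under 5 CPM, were also lower with Thr starvation. Their log2 fold changes were -1.37, -1.29 and -1.90 (adjusted p = 7e-09, 1.7e-08 and 9e-05). Of 11 other HSP40 genes, 7 were higher and 3 lower with Thr and 1 higher and 4 lower with Cys starvation. With Thr starvation 71.4% of the HSP70 and HSP110 list were lower, against 31.9% of all genes. In the HSP40 list 63.6% were higher with Thr starvation, against 31.1% of all genes, and 36.4% lower with Cys starvation, against 18.8%. Dnajc9, a J protein that handles histones, rose by 0.86 and Dnajc8, a J protein found with splicing factors, fell by 0.48 with Thr starvation (adjusted p = 6.1e-17 and 2.8e-12), and Dnaja2, a close relative of Dnaja1, fell by 0.11 with Thr and by 0.23 with Cys starvation (adjusted p = 0.0004 and 6.3e-08). Of 8 HSP70 exchange factors and regulators, 4 were higher and 2 lower with Thr and 1 higher and 4 lower with Cys starvation. Higher were 50% with Thr and 12.5% with Cys starvation, against 31.1% and 17.5% of all genes. Lower were 25% and 50%, against 31.9% and 18.8% of all genes. The higher ones included Bag4 (0.40, adjusted p = 5.4e-10) with Thr starvation and Bag6 with both (0.28 with Thr and 0.11 with Cys starvation, adjusted p = 1.8e-10 and 0.00039), and Bag1 fell by 0.22 with Thr and Hspbp1 by 0.18 with Cys starvation (adjusted p = 7.9e-07 and 0.00047). Bag2, with a mean under 5 CPM, had a log2 fold change of -1.30 with Thr starvation (adjusted p = 1.7e-09).

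Of the 6 small heat shock protein genes in the table, 2 were higher and 1 lower with Thr and 1 higher and 1 lower with Cys starvation. Higher were 33.3% with Thr and 16.7% with Cys starvation, against 31.1% and 17.5% of all genes. Lower were 16.7% with each, against 31.9% and 18.8% of all genes. Hspb8, the small heat shock protein that works with BAG3, rose from 9.62 ± 0.0787 to 27.2 ± 1.14 CPM with Thr starvation (SD, n = 3 each; log2 fold change 1.503, adjusted p = 2e-16) and was at 9.70 ± 0.435 CPM with Cys starvation. Hspb6 rose by 1.200 and 1.04 (adjusted p = 2.1e-12 and 2.5e-10), and Hspb1 fell by 0.33 and 0.34 (adjusted p = 1.3e-10 and 6e-10) with Thr and Cys starvation. Of the 4 other HSF genes and the HSF regulator in the table, 1 was higher and 1 lower with Thr and 0 of 4 were called with Cys starvation, where 1 was lower at an unadjusted p under 0.05 and 1 with DESeq2, namely Hsbp1. With Thr starvation that is 25% in each direction, against 31.1% higher and 31.9% lower of all genes. Hsbp1, which binds HSF1 trimers and restrains them, rose by 0.50 with Thr starvation (adjusted p = 4.9e-13).

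**Figure D4:**
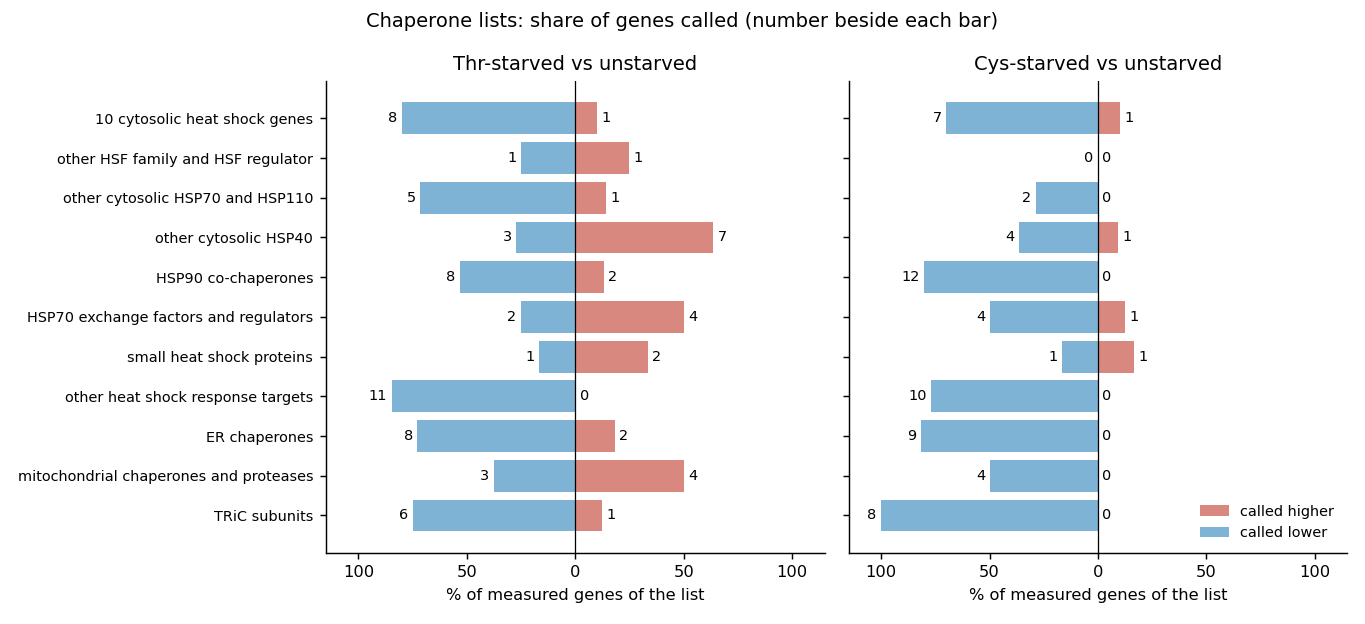
Percent of the measured genes of each list, and of the 10 genes, called higher (bars to the right of 0) and lower (bars to the left) against unstarved libraries, with Thr starvation in the left and Cys starvation in the right panel and the number of genes beside each bar. For the TRiC subunits 8 of 8 were lower with Cys starvation, and for the other HSP40 genes 7 of 11 were higher with Thr starvation. Of all genes, 18.8% were lower with Cys and 31.1% higher with Thr starvation.

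The other heat shock targets listed here mostly moved in the same direction as the set of 10. Most of the 13 are also in the lists above. Of them, 0 were higher and 11 lower with Thr (median -0.36) and 0 higher and 10 lower with Cys starvation (median -0.18). Hspb8 and Dnaja4 are not in this list, and both were called higher with Thr starvation (1.503 and 0.97, adjusted p = 2e-16 and 2.5e-05). Dnaja4 was at 2.13 CPM with Thr starvation and 1.09 CPM unstarved. The counts of 0 higher thus cover only the genes listed. Lower were 84.6% with Thr and 76.9% with Cys starvation, against 31.9% and 18.8% of all genes. The Thr count of 0 higher was also 0 at an unadjusted p under 0.05 and 0 with DESeq2. Hspd1, the mitochondrial HSP60 gene, was the largest decrease of that list in Thr starvation, with log2 fold changes of -1.504 and -0.34 in Thr and Cys starvation (adjusted p = 4.7e-25 and 2.3e-13).

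The counterparts of HSP70 and HSP90 in other compartments were compared gene by gene. In the endoplasmic reticulum (ER), Hspa5, the ER form of HSP70, fell by 1.59 with Thr and by 0.54 with Cys starvation (adjusted p = 7.4e-24 and 5.4e-15). Hsp90b1, the ER form of HSP90, fell by 0.93 and 0.24 (adjusted p = 2.4e-20 and 2.9e-09). Among 11 ER chaperone genes, 2 were higher and 8 lower with Thr and 0 higher and 9 lower with Cys starvation, with Pdia4, a disulfide isomerase, at -2.08 (adjusted p = 7.4e-24) and Canx, a lectin chaperone, at 0.27 (adjusted p = 1e-10) with Thr starvation. In mitochondria, Hspa9, the mitochondrial HSP70, rose by 0.49 with Thr starvation (adjusted p = 2.1e-17) and was at 0.0022 with Cys starvation (adjusted p = 0.94). Trap1, the mitochondrial HSP90, rose by 0.21 with Thr starvation (adjusted p = 1.1e-07) and was at -0.026 with Cys starvation (adjusted p = 0.46). Of 8 mitochondrial chaperones and proteases, 4 were higher and 3 lower with Thr and 0 higher and 4 lower with Cys starvation. With Thr starvation 72.7% of the ER and 37.5% of the mitochondrial list were lower, against 31.9% of all genes. Higher were 18.2% and 50%, against 31.1% of all genes. With Cys starvation 81.8% and 50% were lower, against 18.8% of all genes. The mitochondrial counterparts therefore moved in the opposite direction to Hspa8 and Hsp90ab1 with Thr starvation, while the ER counterparts moved in the same direction.

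Of the 8 subunits of TRiC, the cytosolic chaperonin that folds actin and tubulin, 1 was higher and 6 lower with Thr and 0 higher and 8 lower with Cys starvation. Lower were 75% with Thr and 100% with Cys starvation, against 31.9% and 18.8% of all genes. Cct2 fell by 0.62 in Thr starvation (adjusted p = 1.9e-17) and Cct8 by 0.50 in Cys starvation (adjusted p = 1.4e-14), while Tcp1 was at 0.050 in Thr starvation (adjusted p = 0.031) and fell by 0.21 with Cys starvation (adjusted p = 2e-08). The call for Tcp1 with Thr starvation was lost with the replicate block (adjusted p = 0.051) and without unstarved replicate 1, unstarved replicate 3 or Thr-starved replicate 3 (adjusted p = 0.083, 0.08 and 0.12).

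Over the 9 libraries, Hsf1 and Hspa1b had different closest neighbours. Among the 11408 genes whose mean reached 5 CPM, those most like Hsf1 in log2(CPM + 0.5) were Sh2b3 (Pearson's r = 0.994), Gm14295 (0.993), Ccnk (0.992), Sirt6 (0.991) and Tm2d2 (0.991). The closest to Hspa1b were Snrpg (0.996), Rab5c (0.996), Gm9531 (0.995), Hspa1a (0.995) and the TRiC gene Cct6a (0.995). These correlations rest on 3 groups of 3 libraries, so they mostly describe the order of the group means.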

How the data were processed

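E14 ES cells were starved of Thr or Cys, or left unstarved, for 3 h, and poly(A) RNA of 3 libraries per group was sequenced from both ends. Per the labels and the submitters' processing notes, the authors mapped reads to GRCm38 with STAR 2.7.4a and used HTSeq to obtain gene counts, which were deposited as raw values. The strand and overlap settings and the treatment of multiple matches are not given in the sources used here. A second deposited table holds signal values, the same counts that the authors divided by 1 size factor per library, and served only for an alternative. The treatment protocol in the labels names Arg and Leu, and the starved amino acid was taken from the sample titles.

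Raw counts of 20143 genes with at least 1 count over the 9 libraries were tested with edgeR 4.0.16 (TMM, quasi-likelihood F test, group as the only term, all 9 libraries together, R 4.3.3), with Benjamini-Hochberg adjustment and a threshold of 0.05. Libraries held 48763102 to 74962733 counts, with a common coefficient of variation of 3.53%. SEs were the log2 fold change divided by the root of F, and 95% intervals used the t distribution. Between replicates, the chi-square per gene at counts of 10 to 100 was 1.98 to 2.13, and 0.99 to 1.07 with counts halved, where sampling noise gives 1. With counts halved it was 1.62 to 8.12 at counts of at least 1000, above sampling noise. Symbols, coordinates and exon lengths came from GENCODE M21. Promoters came from RefSeq on GRCm38.p6. The fit was tested on simulated data.

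The 10 genes and the lists (other HSF, HSP70 and HSP110, HSP40, HSP90 co-chaperones, HSP70 exchange factors, small heat shock proteins, heat shock targets, ER, mitochondrial, TRiC, and markers of pluripotency, endoderm, mesoderm, neural cells and fibroblasts) were chosen with earlier results of these data known. From each list the called gene with the largest increase and decrease in each starvation was named, where the mean reached 5 CPM and the groups did not overlap, plus Hspa1a, Hspa5, Hspa9, Hsp90b1 and Trap1. Hsf3, Hspb3, Hspb7 and Cryaa were not in the table, and 1 heat shock target is not reported here. Alternatives were DESeq2 1.42.0, RLE, the deposited size factors, filterByExpr, only the 2 groups compared, the replicate block, thinning to the smallest library, an adjusted p of 0.01, leaving out the 10 most abundant other genes, leaving out each library and, added after seeing the data, counts halved and levels per length of the longest transcript.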

Additional observations from a re-analysis of the deposited data

Results flagged for a closer look

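Of the 10 genes and the 26 list genes named above, the effect of Thr starvation differed from that of Cys starvation for 34. This was judged by the direct test of Thr-starved against Cys-starved libraries, at an adjusted p of 0.05 or less from edgeR. Most of the 26 were named for the largest called change of their list against unstarved libraries. The count therefore comes partly from genes chosen by their values in the same libraries, and is not a rate for chaperone genes. Both effects share the unstarved libraries, and 62% of all genes were called in this test. Values below are log2 fold changes of Thr-starved over Cys-starved libraries.

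Of the 10 genes, 9 differed between the starvations. Hsp90aa1 was higher with Thr starvation by 0.65, Hspa4 by 0.14 and Dnaja1 by 0.14. The values were -0.93 for Hspa8, -0.65 for Hsph1, -0.52 for Hspa1b, -0.48 for Hsf1, -0.36 for Hsp90ab1 and -0.12 for Dnajb1, all lower with Thr starvation.

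Among the other chaperones named, the difference was 1.49 for Hspb8, 0.83 for Dnajc9, 0.58 for Hsbp1, 0.49 for Hspa9, 0.40 for Bag4 and 0.38 for Ppp5c. It was 0.35 for Hspa14, 0.35 for Cct8, 0.27 for Canx, 0.26 for Tcp1, 0.24 for Trap1, 0.17 for Stip1, 0.17 for Bag6, 0.16 for Hspb6, 0.13 for Dnaja2 and 0.12 for Hspbp1. Those lower with Thr starvation were Pdia4 at -1.69, Hspd1 at -1.17, Hspa5 at -1.05, Hsp90b1 at -0.69, Fkbp4 at -0.60, Dnajc8 at -0.50, Cct2 at -0.47, Hspa1a at -0.37 and Bag1 at -0.14. Hsf1 moved in opposite directions in the starvations, and was higher than in unstarved libraries when Cys was withdrawn.
The difference of Hspb6 had an adjusted p of 0.049 and was not called without unstarved replicate 3, Thr-starved replicate 1 or 2, or Cys-starved replicate 1 or 3 (adjusted p = 0.055, 0.12, 0.17, 0.056 and 0.2).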

How the results depend on the processing

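Counts of genes called ranged from 11031 to 12692 with Thr starvation, 5540 to 7573 with Cys starvation and 10785 to 12618 between the starvations over 19 alternatives, all within 1.5 times the values given. Of 540 recomputed values of the 10 genes, 534 kept their direction and side of the threshold. The exceptions were Hspa4, called lower with Cys starvation under the deposited size factors (-0.065, adjusted p = 0.0068), Bag3, called with Thr starvation without unstarved replicate 3, and Bag3 with Cys starvation, which turned sign under the deposited size factors (-0.0057) and ranged from -0.025 to 0.15 as single libraries were left out. Leaving out each library gave 12096 to 12689, 6520 to 7475 and 11788 to 12540 genes called and 9 to 10, 8 to 8 and 9 to 9 of the 10 genes. Same-numbered libraries did not deviate together (correlations -0.24 to 0.11), so the numbers were not taken as pairs. With the replicate block, 12488, 7063 and 12334 genes and 9, 8 and 9 of the 10 were called. Other values that turned sign, all uncalled and near 0 with Cys starvation, were Dnajc9 (-0.0046), Dnajc8 (-0.019), Hspb8 (-0.028), Canx (-0.036) and Hspa9 (-0.040) under the deposited size factors, and without single libraries Hspb8 ranged from -0.0097 to 0.049, Canx from -0.0064 to 0.013 and Hspa9 from -0.0060 to 0.0097. Hspa9 was also at -0.0021 with RLE and DESeq2, -0.00043 with filterByExpr and -0.00013 without the 10 most abundant genes, and Bag4 at 0.0016 with only the 2 groups, 0.0043 with thinned counts and from -0.026 to 0.033 without single libraries. Hspb1 between the starvations ranged from -0.011 to 0.029 without single libraries. The cause of these changes was not tested. Of 1404 recomputed values of the 26 list genes, 15 lost and 11 gained a call, the losses being Tcp1 with Thr, Bag1 with Cys starvation and Hspb6 between the starvations, and the gains, all with Cys starvation, Hsbp1 in 7 alternatives (lower), Ppp5c in 2 (higher) and Hspa14 and Trap1 in 1 each (lower). Bag3, at 448 to 667 counts a library, had the largest SE of the 10 genes.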
